A study of Nicrophorus vespilloides with 60 samples.

Results

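The genes described are 4 cytochrome P450 genes of the burying beetle *Nicrophorus vespilloides*, out of 13761 genes in the count table. They are gene707 (LOC108560973), named cytochrome P450 4C1-like, and gene11963 (LOC108566901), gene430 (LOC108557937) and gene425 (LOC108557953), all named cytochrome P450 9e2-like. They were taken by identifier, and their names come from the study's supplementary list of genes that it called between the native groups NC_POP_NC_ENV and FC_POP_FC_ENV but not in the response of FC_POP to the loss of care. That list was made from these same libraries, so the comparison of the native groups is given here as a description without a test. The other comparisons share libraries with it, so their counts and sizes are not free of that choice.

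RNA was sequenced from pooled heads of first-instar larvae in 46 libraries, each from 1 family. The families came from populations that had evolved with parental care (FC_POP) or with the parents removed in every generation (NC_POP), all derived from the same source population. Larvae of each population were raised either with parents present (FC_ENV) or after their removal (NC_ENV), which gave 12 families of FC_POP_FC_ENV, 11 of FC_POP_NC_ENV, 11 of NC_POP_FC_ENV and 12 of NC_POP_NC_ENV. Each population was kept as 2 replicate lines, so that F1 and N1 formed block 1 and F2 and N2 formed block 2, and each of the 8 combinations of line and environment (F1_FC, F1_NC and so on) held 5 or 6 families. With 2 lines per population, the spread measured here is that among families and not that among lines.

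Cytochrome P450s are heme enzymes that use molecular oxygen and electrons from a reductase to oxidise small, mostly fat-soluble molecules. In insects they act on hormones, fatty acids and cuticular hydrocarbons, and on toxins taken up with food. The family 4 enzyme 4C1 was described from the fat body of the cockroach *Blaberus discoidalis*, where a hormone that mobilises sugar raises its transcript. The name 9e2 comes from the German cockroach *Blattella germanica*, and family 9 enzymes of several insects are known for the oxidation of insecticides and plant compounds. What these 4 genes oxidise in burying beetle larvae is not given by their names.

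Each library summed to between 102719698 and 145666277 counts (median 115258788.5). Genes were tested where 10% of the libraries or more reached 15 counts, which left 11777 of 13761 genes and all 4 P450 genes. In 8 libraries (F1_01, F2_26, F2_31, F2_32, N1_27, N1_29, N2_03 and N2_08) the whole expression profile lay nearer to the mean of the other environment in its own block than to its own. Some results that rest on them are given below with and without them. Group levels, ranges and counts of families above others are given with all libraries. The head label could not be checked with markers of sense organs, gut or fat body, since row identifiers and products are not paired beyond the supplementary list. The genes for larval cuticle proteins of that list had group means from 172.5 to 1892.4 CPM, with single libraries as low as 1.63 CPM. They are no check of the head label.

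The deposited counts of the 4 genes differed in scale. gene707 had from 938 to 21626 counts in a library and gene11963 from 923 to 9710. gene430 had from 16 to 464 counts, and gene425 from 0 to 88. A value for gene707 or gene11963 therefore rests on at least 923 counts, whereas one for gene425 often rests on fewer than 15. The gene table of the RefSeq assembly Nicve_v1.0 places gene707 at 19861 to 22481 and gene11963 at 14 to 8844 of their scaffolds, which it does not name. gene425 is placed at 1575 to 3695 and gene430 at 22482 to 25393. All 4 are annotated as protein-coding. These are genomic spans with introns included, and transcript lengths were not available for use here, so levels are compared between groups within a gene and never between genes.

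gene707, the 4C1-like gene, was lowest in FC_POP_FC_ENV at 21.4 ± 15.8 CPM (CPM, counts scaled to the library total after TMM normalization, mean ± SD, n = 12), where the libraries ran from 7.83 to 63.7 with a median of 15.9. It was at 38.8 ± 16.8 CPM in FC_POP_NC_ENV (n = 11) and 31.2 ± 15.96 CPM in NC_POP_FC_ENV (n = 11). It was highest in NC_POP_NC_ENV, at 78.5 ± 48.8 CPM (n = 12). The groups of each population overlapped. All 11 FC_POP_NC_ENV families lay above the FC_POP_FC_ENV median, but none lay above that group's highest family. That family was F2_26, followed by F2_32 at 38.5 CPM, both among the 8 libraries named above, and then by F1_15 at 28.1 CPM.

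By line, gene707 had a median of 16.5 CPM in F1_FC, with a range of 9.13 to 28.1, and F1_NC held 16.9, 26.04, 43.5, 45.2 and 52.9 CPM. N1_FC had a median of 40.04 CPM (15.8 to 48.4) and N1_NC of 77.8 CPM (45 to 137.0). Thus N1 larvae with care were at about the level of F1 larvae without it. In block 2, F2_FC had a median of 15.5 CPM (7.83 to 63.7) and F2_NC of 40.7 CPM (15.9 to 61.8). The 5 N2_FC families were at 10.9, 12.5, 16.7, 23.3 and 56.6 CPM, and N2_NC had a median of 49.5 CPM between 18.6 and 182.2. The families of block 2 were the more scattered, with a coefficient of variation of 90.4% in N2_NC against 38.8% in N1_NC. Ordered by mean, the groups ran F1_FC, N2_FC, F2_FC, F1_NC, N1_FC, F2_NC, N2_NC and N1_NC, and the ranges of neighbours in that order overlapped in every case.

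gene11963, a 9e2-like gene, was at 19.2 ± 9.74 CPM in FC_POP_FC_ENV (n = 12) and 44.4 ± 20.6 CPM in FC_POP_NC_ENV (n = 11). In the NC_POP it was at 19.9 ± 7.47 CPM with care (n = 11) and 42.5 ± 18.8 CPM without (n = 12). In either environment the means of the populations lay within 1 SD of each other. In line F1 the environments did not overlap: F1_FC ran from 8.23 to 17.03 CPM with a median of 14.1, and F1_NC held 19.8, 22.7, 30.3, 35.7 and 39.4 CPM. F2_FC had a median of 20.5 CPM (15.2 to 38.9) and F2_NC of 57.9 CPM (33.96 to 78.4). N1_FC had a median of 14.9 CPM (11.6 to 32.04) and N1_NC of 51.0 CPM (22.6 to 56.8). In lines F2 and N1, 4 of 6 families without care lay above the highest family with care. The 5 N2_FC families were at 15.1, 17.1, 19.7, 22.1 and 33.7 CPM, and N2_NC had a median of 32.7 CPM (16.2 to 72.7), so that only 3 of 6 N2_NC families lay above all N2_FC families. Some of this overlap came from the 8 libraries named above. F2_26 and F2_32 were the highest of F2_FC (38.9 and 38.2 CPM), and N1_29 and N1_27 of N1_FC (32.04 and 24.3 CPM). N2_03 and N2_08 were the lowest of N2_NC (16.2 and 22.8 CPM). By mean the order was F1_FC, N1_FC, N2_FC, F2_FC, F1_NC, N2_NC, N1_NC and F2_NC, all 4 groups with care below all 4 without, and neighbours overlapped in range.

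gene430, a 9e2-like gene of low level, was at 0.524 ± 0.219 CPM in FC_POP_FC_ENV (n = 12) and 0.931 ± 0.494 CPM in FC_POP_NC_ENV (n = 11). It was at 0.674 ± 0.262 CPM in NC_POP_FC_ENV (n = 11) and 1.43 ± 0.991 CPM in NC_POP_NC_ENV (n = 12). The highest levels were those of line N1 without care, where the median was 2.37 CPM and 5 of 6 families exceeded the N1_FC range of 0.578 to 1.11 CPM. The remaining N1_NC family was at 0.626 CPM. F1_FC ran from 0.412 to 0.877 CPM with a median of 0.647, and F1_NC split into families at 0.483 and 0.516 CPM and families at 1.22, 1.43 and 1.65 CPM. F2_FC had a median of 0.461 CPM (0.134 to 0.613) and F2_NC of 0.728 CPM (0.384 to 1.63). N2_FC held 0.292, 0.453, 0.536, 0.559 and 0.582 CPM. N2_NC had a median of 0.760 CPM between 0.253 and 1.35, with 3 of 6 families above all N2_FC families. By mean the order was F2_FC, N2_FC, F1_FC, N2_NC, F2_NC, N1_FC, F1_NC and N1_NC, with overlapping ranges between neighbours.

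gene425 was close to the detection limit. It had 0 counts in 8 of 46 libraries and at least 15 counts in 17. The families with at least 15 counts were 2 of 12 in FC_POP_FC_ENV, 5 of 11 in FC_POP_NC_ENV, 2 of 11 in NC_POP_FC_ENV and 8 of 12 in NC_POP_NC_ENV. All 6 N1_NC families were among those 8, with 20, 36, 56, 82, 84 and 88 counts, against 0, 4, 8, 12, 12 and 20 counts in N1_FC. In line F1, 4 of 6 families with care had 0 counts and the others 6 and 8, whereas the families without care had 0, 4, 11, 16 and 64. F2_FC had 4, 4, 4, 13, 16 and 19 counts and F2_NC had 4, 7, 14, 36, 62 and 68. Line N2 showed little separation, with 0, 4, 5, 9 and 29 counts with care and 0, 4, 8, 12, 20 and 36 without. Of its 38 values between 1 and 100 counts, 27 were multiples of 4 (71.1%), against 39.8% of such values in the whole table. The group means were 0.0523 ± 0.0564 CPM (FC_POP_FC_ENV, n = 12), 0.215 ± 0.209 CPM (FC_POP_NC_ENV, n = 11), 0.0785 ± 0.0725 CPM (NC_POP_FC_ENV, n = 11) and 0.290 ± 0.247 CPM (NC_POP_NC_ENV, n = 12).

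**Figure D1:**
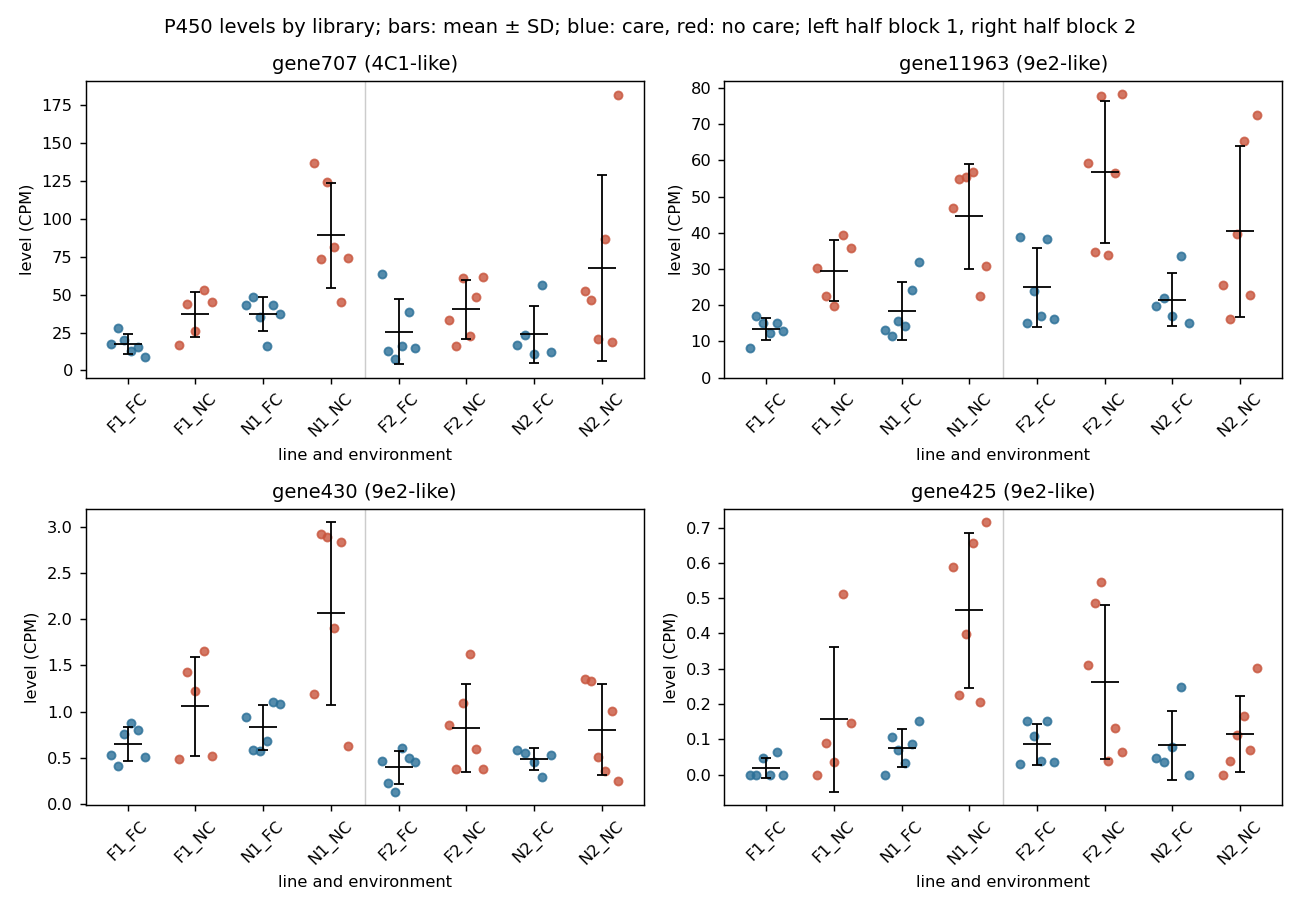
Level of each P450 gene in CPM (y axis, linear, a scale of its own per gene) in every library, by line and environment (x axis), with 1 point per family and the mean ± SD of each group. The F1 families of gene11963 separate by environment, N1_NC stands highest for gene430 and gene425, and N2_NC holds the highest family of gene707 at 182.2 CPM.

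The first comparison asked how the genes responded when larvae of the FC_POP lost care. All 4 had higher values in NC_ENV, and 1 of 4 passed the test (adjusted p under 0.01 and an absolute log2 fold change of at least 1), where 7.06% of all tested genes did so. gene11963 rose by a log2 fold change of 1.19 ± 0.246 (SE, adjusted p = 1.356e-04, edgeR quasi-likelihood test with Benjamini-Hochberg adjustment), with 5 of 11 families above the highest family with care. The log2 fold change of gene707 was 0.86 ± 0.351 (adjusted p = 0.0406), that of gene430 0.91 ± 0.298 (adjusted p = 0.011) and that of gene425 2.04 ± 0.742 (adjusted p = 0.0217). The last 3 did not pass. The median log2 fold change of the 4 genes was 1.05, beside 0.06 over all tested genes. This response was part of how the list was made, in that genes called in it were left out, which bears on the size these genes could have here. Single libraries decided some of these calls. Without F2_26, the family at 63.7 CPM and among the 8 named above, gene707 passed with a log2 fold change of 1.17 (adjusted p = 0.003903). gene430 passed without F1_01, F1_09A or F2_31, with a log2 fold change between 1.004 and 1.02.

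In the NC_POP all 4 genes again had higher values without care, and 3 of 4 passed, where 2.31% of all tested genes did so. gene707 rose by a log2 fold change of 1.34 ± 0.358 (adjusted p = 0.003747), with 7 of 12 NC_POP_NC_ENV families above every NC_POP_FC_ENV family. gene11963 rose by 1.11 ± 0.248 (adjusted p = 6.817e-04) and gene430 by 1.05 ± 0.3 on the log2 scale (adjusted p = 0.006506), each likewise with 7 of 12 families above all families with care. gene425 had a log2 fold change of 1.92 ± 0.753 and did not pass (adjusted p = 0.0443). The median of the 4 genes was 1.22, beside 0.06 over all tested genes. The genes were listed for a difference between NC_POP_NC_ENV and FC_POP_FC_ENV in these same libraries. NC_POP_NC_ENV is also a group of this comparison, so the count and the sizes here may be raised by that choice. The call of gene707 was lost without N2_10, the family at 182.2 CPM, with a log2 fold change of 1.14 (adjusted p = 0.01179). The call of gene430 was lost without any one of N1_23, N1_25, N1_32, N1_33, N1_37, N2_01, N2_03, N2_18 and N2_21, with adjusted p between 0.01003 and 0.01469, and that of gene11963 was kept in all 46 fits with a library left out.

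Within block 1 alone, the NC_POP log2 fold changes were 1.27 for gene707, 1.27 for gene11963 and 1.31 for gene430. Only gene11963 passed, beside 134 of 11761 tested genes. Within block 2 alone the log2 fold changes were 1.48, 0.88 and 0.70, and none passed, beside 139 of 11687 tested genes. The FC_POP log2 fold change of gene11963 was 1.14 in block 1 alone, where it passed, and 1.20 in block 2 alone (adjusted p = 0.01529). In that response 292 of 11761 tested genes passed in block 1 alone and 412 of 11687 in block 2 alone.

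The difference between the 2 responses was tested directly, as the NC_POP response minus the FC_POP response. No P450 gene passed, and 0% of all tested genes did. At an unadjusted p under 0.05 there were 940 of the 11777 genes, and DESeq2 called 1 gene. The difference was 0.48 for gene707 on the log2 scale (95% interval −0.52 to 1.48), −0.08 for gene11963 (−0.78 to 0.61), 0.14 for gene430 (−0.71 to 0.99) and −0.12 for gene425 (−2.08 to 1.85). Thus 3 genes passed in the NC_POP and 1 in the FC_POP, but no response was shown to differ between populations, and the intervals leave room for differences of more than 1 in gene707 and gene425. Without F2_26 the difference of gene707 was 0.18. Without the 8 libraries named above it was 0.05, as its log2 fold change was then 1.52 in the FC_POP (adjusted p = 4.312e-04) and 1.57 in the NC_POP. Those libraries were singled out by their expression and leaving them out widens a response by construction.

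The 4 lines were then taken one at a time, in a fit with 8 groups of line and environment. All 4 genes had a higher value without care in every line. gene11963 was the most even, with a log2 fold change of 1.13 in line F1, 1.19 in line F2, 1.27 in line N1 and 0.91 in line N2, and standard errors from 0.325 to 0.342. It passed in F2 (adjusted p = 0.004832) and N1 (adjusted p = 0.005698), and these were the only members called in any line. Thus 0 of 4 genes passed in F1, where 3.1% of all tested genes did, 1 of 4 in F2 (3.98%), 1 of 4 in N1 (1.39%) and 0 of 4 in N2 (1.53%). These calls were close to the threshold. The F2 call was lost without any one of F2_27, F2_28, F2_31, F2_34, F2_41 and F2_47, and the N1 call without any one of N1_22, N1_23, N1_25, N1_26, N1_32, N1_33 and N1_35. In F1, gene11963 had an adjusted p of 0.01163 and passed without any one of F1_04, N1_29, N1_37, N2_03 and N2_10.

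gene707 had log2 fold changes of 1.10 ± 0.504 in line F1, 0.66 ± 0.482 in line F2, 1.26 ± 0.487 in line N1 and 1.499 ± 0.522 in line N2. The value in N2 turned on single families, being 0.91 without N2_10 and 2.098 without N2_21, when it passed (adjusted p = 0.00592). That in F2 was 1.17 without F2_26. gene430 had log2 fold changes of 0.70, 1.04, 1.31 and 0.73 in F1, F2, N1 and N2. gene425 had 2.98, 1.60, 2.61 and 0.47 in the same order, with standard errors from 0.936 to 1.06. Its value in F1 was set against a group in which 4 of 6 families had 0 counts and was 1.78 without F1_06, and its value in N2 was −0.10 without N2_10 and 1.47 without N2_21.

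**Figure D2:**
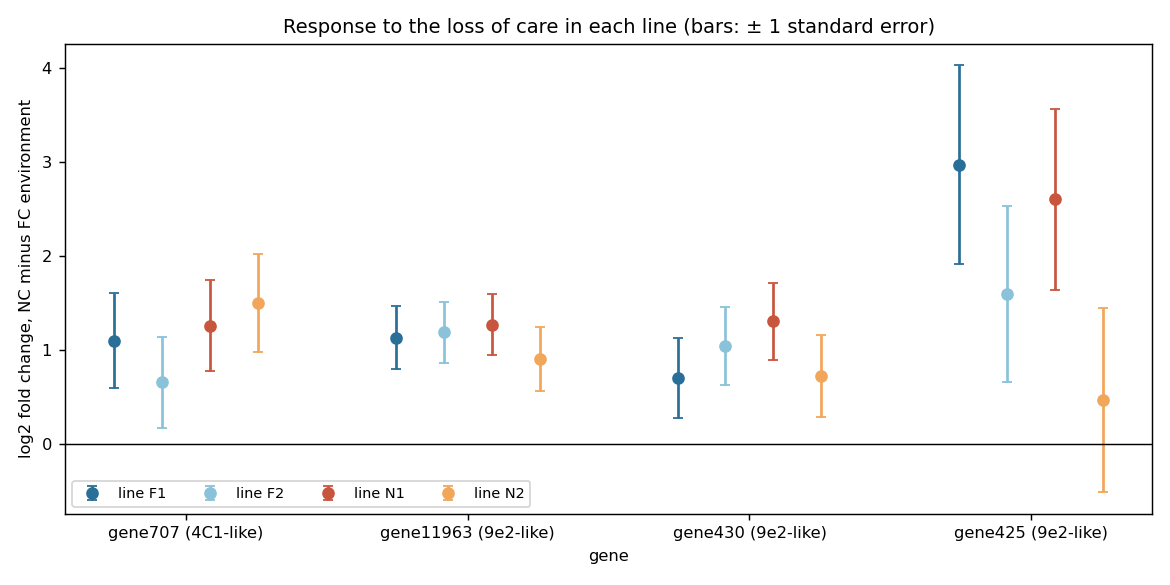
Log2 fold change of each P450 gene without care against with care (y axis) in the lines F1, F2, N1 and N2 (colours), with bars of 1 standard error. All 16 points lie above 0, those of gene11963 between 0.91 and 1.27, and those of gene425 are the most spread, from 0.47 to 2.98.

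To ask whether the populations differed in a common environment, NC_POP and FC_POP larvae raised alike were compared. With care, 0 of 4 genes passed, where 0.0425% of all tested genes did, and without care also 0 of 4, where 0.0849% did. The fitted values of gene707, gene430 and gene425 were higher in the NC_POP in both environments. That of gene11963 had no settled sign without care, since its group mean was 42.5 CPM in the NC_POP and 44.4 CPM in the FC_POP, and its fitted difference of 0.04 was −0.064 without the block covariate and fell below 0 in 9 of 46 fits with a library left out. The largest difference relative to its error was that of gene707 without care, with a log2 difference of 1.01 ± 0.356 (95% interval 0.29 to 1.72, adjusted p = 0.1226) and 7 of 12 NC_POP_NC_ENV families above every FC_POP_NC_ENV family. With care its log2 difference was 0.53 ± 0.355 (adjusted p = 0.8315), and none of the 11 NC_POP_FC_ENV families lay above the highest FC_POP_FC_ENV family, F2_26. gene11963 differed by 0.12 with care (95% interval −0.37 to 0.62) and by 0.04 without (−0.46 to 0.54). gene430 differed by 0.32 and 0.45, and gene425 by 0.64 and 0.52, with adjusted p from 0.4683 to 0.965.

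The population differences were also taken within each block. In block 1, all 4 genes had higher values in N1 than in F1 in both environments. With care the log2 differences were 1.11 ± 0.486 for gene707, 0.46 ± 0.321 for gene11963, 0.36 ± 0.41 for gene430 and 1.93 ± 1.02 for gene425. Without care they were 1.27 ± 0.518, 0.59 ± 0.339, 0.96 ± 0.434 and 1.56 ± 0.98 in the same order. For gene707, 5 of 6 N1_FC families lay above all F1_FC families and 5 of 6 N1_NC families above all F1_NC families. In block 2, only gene430 was higher in N2 than in F2 with care (0.28 ± 0.433) and only gene707 without care (0.75 ± 0.483). The other values were −0.09 for gene707, −0.21 for gene11963 and −0.05 for gene425 with care, and −0.49 for gene11963, −0.03 for gene430 and −1.18 for gene425 without. None of these 16 differences passed, where the share of all tested genes that passed was 0.0425% between N1 and F1 with care, 0.017% between N1 and F1 without care, 0.0425% between N2 and F2 with care and 0.365% between N2 and F2 without care. Single families moved the block 2 values of gene707 as well, to 0.15 without care when N2_10 was left out, and with care to −0.69 without N2_21 and 0.42 without F2_26. F2_26, F2_31 and F2_32 of F2_FC are among the 8 libraries named above. Without those 8, gene707 and gene11963 were higher in N2 than in F2 with care, by values given in the last section. Those libraries were singled out by their expression.

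Whether the population difference itself differed between blocks was tested after these values were seen. No P450 gene passed in either environment, with adjusted p from 0.4406 to 0.9697 with care and from 0.2822 to 0.8232 without. The largest contrasts relative to their errors were those of gene11963 without care, 1.08 higher on the log2 scale in block 1 (95% interval 0.14 to 2.03, adjusted p = 0.2822), and of gene425 without care, 2.74 higher (0.03 to 5.46, adjusted p = 0.3662). A line cannot be told apart from the families drawn from it, and block and line pair are the same split.

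**Figure D3:**
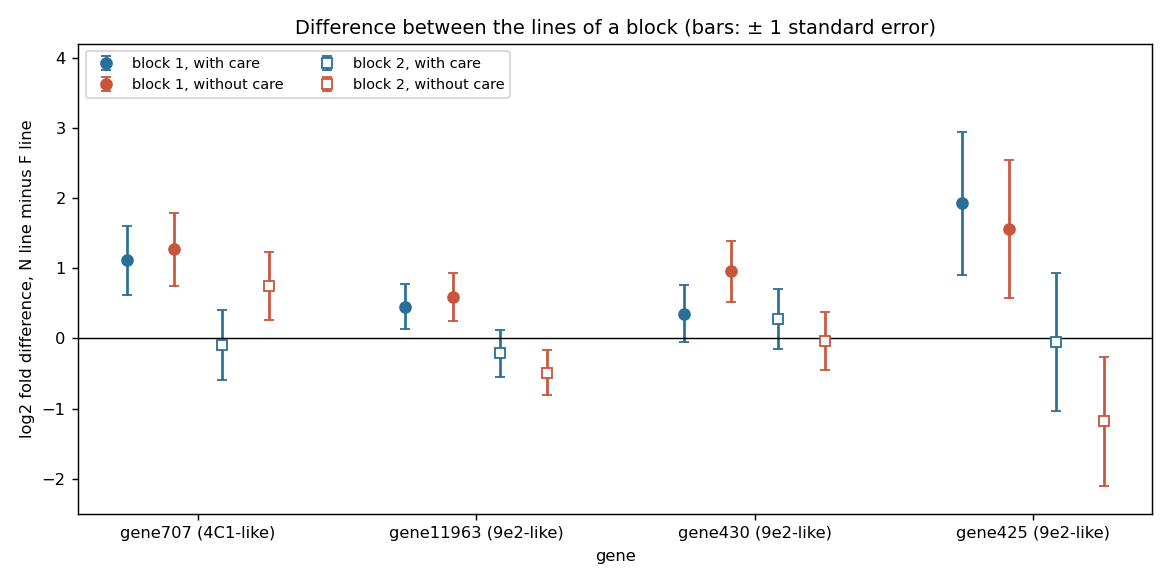
Log2 difference between the NC_POP line and the FC_POP line of the same block (y axis) for each P450 gene, with care (blue) and without (red), in block 1 (filled circles) and block 2 (open squares), with bars of 1 standard error. Filled circles all lie above 0, from 0.36 to 1.93, and 6 of 8 open squares lie below 0.

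The native groups chose these genes and are described only. NC_POP_NC_ENV exceeded FC_POP_FC_ENV by a log2 difference of 1.86 ± 0.355 in gene707, 1.23 ± 0.244 in gene11963, 1.36 ± 0.295 in gene430 and 2.55 ± 0.793 in gene425. At the thresholds used above 3 of 4 genes were called here, all but gene425, beside 3.75% of all tested genes. Both the count and its excess over that share were set by the way the genes were chosen, and nothing is read from them. Each of these values is, by construction, the FC_POP response plus the population difference without care. For gene707 the addends were 0.86 and 1.01, and for gene11963 they were 1.19 and 0.04. For gene430 they were 0.91 and 0.45, and for gene425 2.04 and 0.52.

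Families of one group varied, and it was asked whether families high in one P450 gene were high in another. After the mean of each of the 8 groups was taken off the log2 CPM, gene707 and gene11963 rose and fell together across the 46 families (Pearson's r = 0.63, permutation p = 8e-05, adjusted over 6 pairs 0.00048; Spearman's rho = 0.65, adjusted p = 0.0003). Without N2_10 and F2_26, the families farthest from the median in gene707, r was 0.56. It was 0.36 in block 1 and 0.76 in block 2, and 0.59 with care and 0.67 without. gene11963 and gene425 were related more weakly (r = 0.45, rho = 0.44, permutation p adjusted 0.012 and 0.017), with r = 0.42 in block 1, 0.48 in block 2 and 0.40 without N2_03 and N2_10. N2_03 and N2_10 were the farthest from the median in gene11963, and no family was picked for its level of gene425. gene707 and gene425 gave r = 0.30 and rho = 0.31 (permutation p adjusted 0.138 and 0.121).

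No relation of gene430 with another of the genes passed. Its r was −0.05 with gene707, −0.22 with gene11963 and −0.26 with gene425 (permutation p adjusted from 0.178 to 0.764), and in no pair did the blocks share a sign. In block 1 its r was 0.08 with gene707, 0.18 with gene11963 and 0.13 with gene425, and in block 2 it was −0.12, −0.47 and −0.57. The relation with gene425 passed an adjusted p of 0.05 without F1_01 (r = −0.38, permutation p adjusted 0.0408) and without the 8 libraries named above (r = −0.42, permutation p adjusted 0.0422). In gene430 and gene425 the counts are low, which limits what a correlation over them can show.

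**Figure D4:**
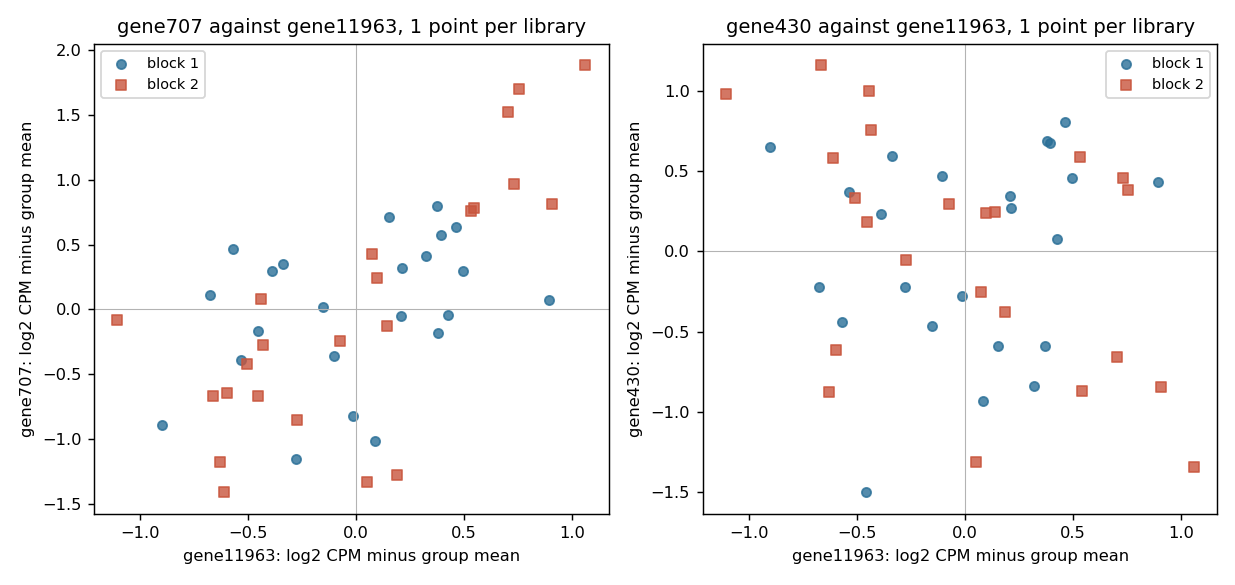
Log2 CPM minus the mean of the group of line and environment for gene707 against gene11963 (left) and for gene430 against gene11963 (right), with 1 point per family, circles for block 1 and squares for block 2. The left cloud slopes upward (r = 0.63 over 46 families), the right one does not (r = −0.22).

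Over all 46 libraries, with the group differences kept, the gene most like gene707 among 9699 candidates with a mean of at least 1 CPM was gene6908 (r = 0.88), whose product is not named in the files. gene6908 was at 73.0 ± 69.1 CPM in FC_POP_FC_ENV (n = 12) and at 203.3 ± 127.6 CPM in NC_POP_NC_ENV (n = 12). The gene most like gene11963 was gene2288 (r = 0.84), at 36.2 ± 11.5 and 54.3 ± 13.7 CPM in those groups (n = 12 each). gene11963 stood at rank 317 in the list of gene707, and gene707 at rank 291 in that of gene11963, with r = 0.67. With the group means taken off, these ranks were 234 and 47, with r = 0.63. These correlations describe libraries that share depth and treatment. gene430 and gene425 were too low for this search.

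gene425 and gene430 are close in the annotation. The gene table lists 4 records between LOC108557953 and LOC108557937, with starts that ascend, and the spans would lie 18786 bases apart if all are on the same scaffold. The count table likewise has 4 row numbers between gene425 and gene430. The row next to gene425 passed in both responses, with a log2 fold change of 1.23 in the FC_POP (adjusted p = 5.238e-04) and 1.44 in the NC_POP (adjusted p = 2.008e-04), and the 3 other rows between them were not called in either. Of 34 rows within 5 row numbers of the P450 genes, 29 were tested, of which 5 were called higher and 0 lower in the FC_POP response (4.34% and 2.72% of all tested genes) and 2 higher and 0 lower in the NC_POP response (1.36% and 0.951%). The record after that of gene11963, at 3415 to 6412, would overlap it if both are on the same scaffold, and whether the counting used strand is not given in the sources used here, so some counts of gene11963 may belong to the neighbour.

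The supplementary list held 8 other genes grouped here, by product name alone, under oxidation and hormone metabolism, of which 7 were tested. What their products do in these larvae was not tested. The supplementary list was chosen on these libraries and is no independent evidence of a direction. It left out genes that the study called in the FC_POP response. The counts of calls below are therefore not compared between the responses. The juvenile hormone acid O-methyltransferase-like gene10629, whose product acts late in juvenile hormone synthesis, was below the count filter. In the NC_POP response 3 of 7 rose and 0 fell, where 1.36% of all tested genes were called higher and 0.951% lower, with a median log2 fold change of 0.49 (0.06 over all tested genes). Those that rose were gene9459 (LOC108564048, UDP-glucuronosyltransferase 2B13-like), of a family that attaches sugars to oxidised compounds, by 2.101 ± 0.515 (adjusted p = 0.001685), gene2081 (LOC108569597, luciferin 4-monooxygenase-like) by 2.17 ± 0.602 (adjusted p = 0.005031) and gene8756 (LOC108563277, farnesol dehydrogenase-like), named for a step of juvenile hormone synthesis, by 1.52 ± 0.452 on the log2 scale (adjusted p = 0.008578). The rest did not pass. Among them gene12193 (dual oxidase 1-like) had a log2 fold change of 0.49 and gene10047 (NADPH oxidase 5) of −1.49 (adjusted p = 0.01192). The glucose dehydrogenase genes gene89 and gene7763 had −2.19 and −2.09 (adjusted p = 0.06123 and 0.08041). The summed level of the 7 genes had a median of 161.7 CPM in NC_POP_FC_ENV and 70.1 CPM in NC_POP_NC_ENV. That sum was set mainly by gene10047 (means of 135.6 and 52.9 CPM in those groups) and gene89 (28.6 and 8.28 CPM), which did not pass. The 3 genes that rose were low, the highest of them gene8756 at 5.85 and 16.7 CPM, so the sum does not describe them. In the FC_POP response 0 of 7 rose and 1 fell, where 4.34% of all tested genes were called higher and 2.72% lower, with a median of 0.35 (0.06 over all tested genes).

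The gene that fell was gene10047 (LOC108564697, NADPH oxidase 5), of a family that makes reactive oxygen, with a log2 fold change of −1.53 ± 0.462 (adjusted p = 0.005922). Its value in the NC_POP was similar, at −1.49 ± 0.464, and the difference between the responses was 0.045 (adjusted p = 0.9941). gene10047 was at 157.4 ± 96.3 CPM in FC_POP_FC_ENV (n = 12) and 54.5 ± 39.3 CPM in FC_POP_NC_ENV (n = 11). It was at 135.6 ± 75.5 CPM in NC_POP_FC_ENV (n = 11) and 52.9 ± 58.05 CPM in NC_POP_NC_ENV (n = 12). The transferase gene9459 was at 0.794 ± 0.525, 2.14 ± 1.16, 0.711 ± 0.698 and 3.08 ± 2.31 CPM in the same order of groups. Of gene9459, gene2081, gene8756 and gene10047, none passed between populations in a common environment. Only 0.0425% of all tested genes passed there with care and 0.0849% without, so nothing is read from this.

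Cuticle protein genes were also described in the same libraries, on which their list was chosen. Of the 10 cuticle protein genes of the same supplementary list, 1 rose and 4 fell in the NC_POP response (1.36% and 0.951% of all tested genes). In the FC_POP response 0 rose and 0 fell (4.34% and 2.72% of all tested genes), with a median log2 fold change of −1.49 (0.06 over all tested genes). The supplementary list left out genes that the study called in the FC_POP response. These counts are therefore partly set by that choice, and nothing is read from their difference between the responses. The one that rose was gene5094 (pupal cuticle protein C1B-like), with a log2 fold change of 1.47 ± 0.434 (adjusted p = 0.008094). Those that fell were gene12435, gene7362 and gene7462 (flexible cuticle protein 12-like) and gene3661 (larval cuticle protein A2B-like), with log2 fold changes from −2.60 to −1.44. The summed level of the 10 genes had a median of 5185.1 CPM in FC_POP_FC_ENV (975.5 to 8202.6), 1570.9 CPM in FC_POP_NC_ENV (840.1 to 4967.5), 3997.8 CPM in NC_POP_FC_ENV (718.9 to 7829.9) and 1708.4 CPM in NC_POP_NC_ENV (940.3 to 4881.1). The choice of the list bears on these sums too. In FC_POP_FC_ENV they were led by gene9321 and gene3237 (means of 1892.4 and 830.9 CPM). From FC_POP_FC_ENV to NC_POP_NC_ENV, gene5093 and gene5094 went the other way, from means of 158.4 to 597.2 CPM and of 84.9 to 289.5 CPM. The part of the epidermis or of the moulting stage in the P450 levels was not tested, and in pooled heads fewer cells of a type and less RNA per cell cannot be told apart.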

How the data were processed

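RNA libraries from larval heads of 46 families were grouped by population, line and environment from GEO's labels. The labels name 60 samples, of which 14 are bisulfite libraries that were not analysed here, and 0 columns were left out. After trimming, the authors aligned reads by HISAT, obtained gene values with StringTie and deposited whole-number counts per gene, not normalized. Of the 13761 genes, 508 had 0 counts in all libraries. Strand and multi-mapping settings are not given in the sources used here.

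Counts were tested in R 4.3.3 with edgeR 4.0.16 (TMM, quasi-likelihood test, Benjamini-Hochberg over 11777 genes), with 4 groups and block as a covariate, or 8 groups of line and environment, and all libraries in 1 fit. A gene was called at an adjusted p under 0.01 and an absolute log2 fold change of at least 1. Log2 CPM used a prior count of 2. No 2 libraries of a group were alike within sampling noise (lowest chi-square per gene 194.8 over 110 pairs). The steps were tested on simulated data. Relations between genes used 100000 permutations within groups (numpy 2.4.6).

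The genes, the lists and the tests were chosen with earlier results of these data known. The text names all 4 P450 genes, the genes of both lists that matter to a count, and the gene most like each P450 gene with a mean of at least 1 CPM, and gives rows adjoining by number as counts. The alternatives tried were DESeq2 1.42.0, its shrinkage by ashr 2.2.63, its size factors in edgeR, other filters and thresholds, only the groups compared, no block, single blocks, and leaving out libraries in turn. Leaving out the 8 libraries nearer the other environment, and the test between blocks, were added after seeing the data. The study states that the families were chosen at random and were not related within a population, so p-values measure the spread among families.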

Additional observations from a re-analysis of the deposited data

Results flagged for a closer look

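Of 32 groups of 5 or 6 families examined (4 genes in 8 groups), 2 held a family that stood apart from the rest by Dixon's ratio, and chance alone gives about 1 in 20. For gene707 in N2_FC, family N2_21 was at 56.6 CPM where the group's median was 16.7 (ratio 0.728, critical value 0.71, n = 5). For gene425 in F1_NC, family F1_06 was at 0.511 CPM, or 64 counts, where the median was 0.0887 CPM (ratio 0.711, critical value 0.71, n = 5).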

How the results depend on the processing

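No paired analysis was possible because each family is in 1 group and family numbers do not link groups; block was a covariate instead. At an adjusted p under 0.05, the number of P450 genes called was 2 in the FC_POP response, 2 in each of the lines F1, F2 and N1, and 1 in N2. Of all 11777 tested genes, 1121, 792, 863, 371 and 425 were then called, in the same order. With only the groups compared, the number of P450 genes called was 1 in F1, 0 in F2 and 0 in N1, beside 193, 215 and 86 of 11777 tested genes. With DESeq2 it was 1 in F1, beside 598 of 11547 genes, and 2 in N1, beside 299 of 10634. Shrinkage by ashr left 0 P450 genes in the FC_POP and 0 in the NC_POP response, as shrunken fold changes were under 1. It left 637 of 11770 and 166 of 11086 tested genes in those responses. Block 1 alone gave 1 P450 gene in the NC_POP, beside 134 of 11761 tested genes. Block 2 alone gave 0 in the FC_POP and the NC_POP, beside 412 and 139 of 11687. Without the 8 libraries nearer the other environment there were 3 P450 genes in the FC_POP response, 1 in F1 and 2 in N2. Calls over all 11777 tested genes then also rose, to 1528, 636 and 392 from 831, 365 and 180. With a library left out in turn, the counts of P450 genes ran from 1 to 2 in the FC_POP, 2 to 3 in the NC_POP and 0 to 1 in each line. No filter, DESeq2 size factors and no fold limit changed none of these counts of P450 genes by over 1.5 times. gene425 was not in the fit with a filter of 15 counts in 50% of libraries.

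Some signs turned. Between populations, gene11963 without care was −0.064 with no block covariate. In block 2 alone, the differences with care were −0.088 (gene707), −0.20 (gene11963) and −0.044 (gene425), and without care −0.52 (gene11963), −0.06 (gene430) and −1.21 (gene425). The difference between responses was 0.13 for gene11963 in block 1 alone and −0.36 for gene430 in block 2 alone, and without the 8 libraries 0.11 (gene11963), −0.23 (gene430) and 0.10 (gene425). Without those libraries, N2 minus F2 with care was 1.04 for gene707 and 0.23 for gene11963. With a library left out, gene11963 ran from −0.002 to 0.23 between populations with care, from −0.031 to 0.14 without, and from −0.20 to 0.058 in the difference of responses. gene425 ran from −0.40 to 0.21 in that difference, from −0.10 to 1.47 in the N2 response and from −1.05 to 0.27 in N2 minus F2 with care, gene707 from −0.69 to 0.42 in the last, and gene430 from −0.25 to 0.27 in N2 minus F2 without care.

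Among correlations within groups, 4 group means in place of 8 gave 0.092 for gene707 and gene430 and 0.37 for gene707 and gene425 (permutation p adjusted 0.031). gene430 and gene425 gave −0.42 without the 8 libraries (permutation p adjusted 0.0422). With a library left out, gene707 and gene430 ran from −0.16 to 0.084, and gene430 and gene425 from −0.38 to −0.20. Apart from the shrinkage, the cause was not tested. Depth limits gene425 most, at 15 or more counts in 17 of 46 libraries.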
